A study of Mus musculus with 10 samples.

Results

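The visual cycle genes examined here are 10 genes that encode the retinoid enzymes and carriers of the retinal pigment epithelium (RPE), Müller glia and photoreceptors. They were taken by symbol from a table of 57010 gene rows, all 10 were found, and all 10 were among the 15539 genes with enough counts to be tested. Whole retinas of mice aged 6 to 8 weeks were sequenced in bulk 14 days after an injection into the vitreous, 5 mice with AAV2-GFP and 5 with AAV206-GFP. Both are adeno-associated virus vectors that carry green fluorescent protein, and the labels name no other difference between the groups. AAV2 is a serotype in wide use for inner retinal cells, and the study's title presents its vector as specific for the RPE. Strain, sex, vector dose and the promoter of the transgene are not given in the sources used here, and no uninjected retina was analysed here.

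The visual cycle returns the chromophore of the opsins to its light-sensitive form. A photon turns 11-cis-retinal into all-trans-retinal, which photoreceptors reduce to all-trans-retinol. The RPE, a pigmented cell layer behind the photoreceptors, esterifies this retinol, isomerises it and oxidises it back to 11-cis-retinal. Müller glia, the radial glia of the retina, hold retinoid carriers of their own and are thought to supply cones. The members were grouped by the cells known to express them. Rpe65, Lrat and Rdh5 belong to the RPE, and Rlbp1, Rgr and Rdh10 to the RPE and Müller glia. Rdh8, Rdh12 and Rbp3 belong to photoreceptors, and Rdh11 is known in several cell types.

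In the fit across all genes 2 of the 10 members passed an adjusted p of 0.05 with edgeR, and both were lower with AAV206-GFP. Rgr, which encodes a light-absorbing opsin of RPE and Müller glia, fell by 0.79 on the log2 scale, and Rdh11, a retinol dehydrogenase, fell by 0.23. Of all tested genes 11.2% passed, and 5.3% passed as lower. The 2 calls are 20% of a list of only 10 genes, and the other 8 members did not pass. An unadjusted p under 0.05 was reached by 4 members, against 28.0% of all tested genes. DESeq2 called 2 members and limma-voom 1, against 2254 and 1643 of all 15539 tested genes. The median log2 fold change over the members was -0.21, against -0.0095 over all tested genes, with 7 members lower and 3 higher in estimate. Groups did not overlap in 1 member, Rdh11, against 9.78% of all tested genes, or 4.36% in the lower direction. The calls of Rgr and Rdh11 both lay close to the threshold, and both were lost in most fits with 1 library removed. Rgr did not pass in 7 of these 10 fits and Rdh11 in 9 of 10, as given with each gene. In bulk tissue, fewer cells of a type in the sample, for whatever reason, and less RNA per cell cannot be told apart. How much RPE each retina sample held was not measured.

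**Figure D1:**
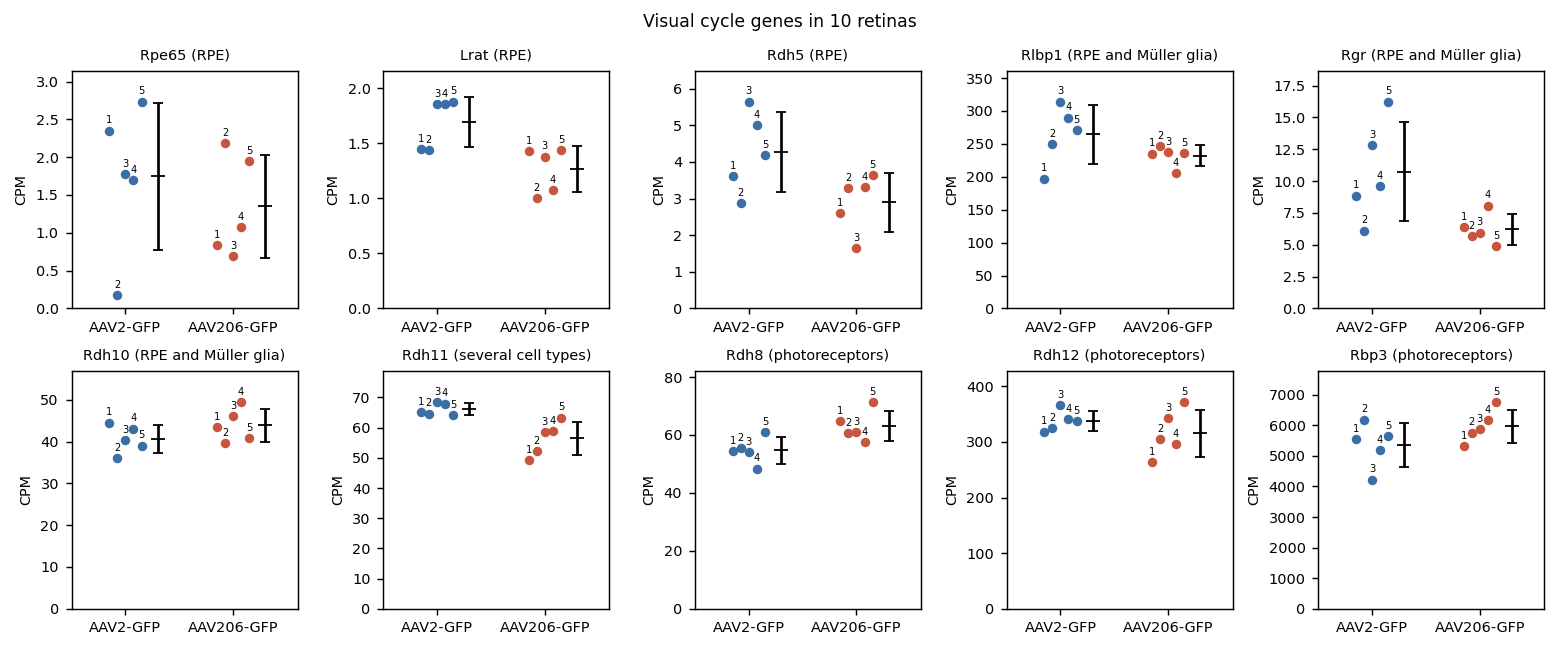
Level of each visual cycle gene in the 10 libraries, in CPM (counts for every 1000000 counts of a library) on a linear axis from 0; points are single retinas numbered by replicate, and bars show the mean and SD of the 5 libraries of a group. For Rdh11 all AAV206-GFP points lie under all AAV2-GFP points, while the groups overlap in the other 9 panels.

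The members lie on 7 chromosomes of mouse build mm10 (GRCm38), with positions from GENCODE release M21. Rpe65 (ENSMUSG00000028174) is at chr3:159599175-159625321 and Lrat (ENSMUSG00000028003) at chr3:82892579-82903973. Rgr (ENSMUSG00000021804) is at chr14:37034909-37048964 and Rbp3 (ENSMUSG00000041534) at chr14:33954003-33964216. Rdh11 (ENSMUSG00000066441) at chr12:79174337-79192293 and Rdh12 (ENSMUSG00000021123) at chr12:79208914-79222665 are neighbours on opposite strands, 16.6 kb apart. Rdh5 (ENSMUSG00000025350) is at chr10:128913593-128922888, Rdh8 (ENSMUSG00000053773) at chr9:20818503-20826117 and Rdh10 (ENSMUSG00000025921) at chr1:16105774-16133734. Rlbp1 (ENSMUSG00000039194) is at chr7:79374870-79387048. Rdh5 is the member whose counts carried decimals, in all 10 libraries, and it overlaps Bloc1s1, a lysosome-related organelle gene on the same strand that also carried decimals in 10 libraries. The level of Rdh5 is uncertain, since reads can be divided between overlapping genes.

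Promoter windows of 300 bases were taken from RefSeq (GRCm38.p6), from 250 bases before to 50 after the start site, and 9 of the 10 members were matched. They are printed for Rgr and Rdh11, the members that passed the test, and for Rbp3, the most abundant member. Capitals mark the searched motifs on either strand, which were TAATCC (the core bound by the photoreceptor and RPE factors CRX and OTX2) and the E-boxes CATGTG and CACGTG.
Rgr, chr14:37048965-37049264, minus strand: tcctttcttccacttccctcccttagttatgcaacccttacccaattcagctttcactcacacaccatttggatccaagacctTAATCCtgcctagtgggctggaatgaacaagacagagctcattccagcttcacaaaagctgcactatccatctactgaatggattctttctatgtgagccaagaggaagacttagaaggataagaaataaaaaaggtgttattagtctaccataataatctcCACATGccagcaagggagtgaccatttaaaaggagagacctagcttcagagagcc
Rdh11, chr12:79191806-79192105, minus strand: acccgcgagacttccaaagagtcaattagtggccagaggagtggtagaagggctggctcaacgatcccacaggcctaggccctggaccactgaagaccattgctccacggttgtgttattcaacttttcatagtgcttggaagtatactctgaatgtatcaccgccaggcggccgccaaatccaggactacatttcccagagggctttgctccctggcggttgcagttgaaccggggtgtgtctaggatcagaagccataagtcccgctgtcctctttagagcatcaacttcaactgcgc
Rbp3, chr14:33953753-33954052, plus strand: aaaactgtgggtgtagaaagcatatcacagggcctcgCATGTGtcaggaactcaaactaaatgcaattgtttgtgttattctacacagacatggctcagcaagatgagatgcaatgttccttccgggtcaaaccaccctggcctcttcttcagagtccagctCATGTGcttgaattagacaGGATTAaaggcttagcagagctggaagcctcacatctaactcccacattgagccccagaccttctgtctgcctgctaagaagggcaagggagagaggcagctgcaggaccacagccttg
TAATCC or its reverse complement began 167 bases before the start in Rgr and 69 bases before it in Rbp3. Rpe65 also held it, 42 bases before the start, which made 3 members with this motif, against 7.06% of all 32851 promoter windows. CATGTG was found in 4 members (Rpe65, Rlbp1, Rgr and Rbp3), against 14.2% of all windows, and CACGTG in 0, against 7.15%. None of the searched motifs overlapped another in the printed windows, and the Rdh11 window held none of them. RefSeq held 2 windows for Rdh11, and only the printed window, nearest the annotated gene start, was used for it. These matches are letters in a window and no measure of binding.

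Levels between genes were compared per kilobase of exon, as CPM per kb. Rbp3, which encodes the interphotoreceptor retinoid-binding protein that fills the space between photoreceptors and RPE, was the highest at 1071 ± 130 CPM per kb (SD, n = 10). Rdh12 followed at 110 ± 11.0, Rlbp1 at 84.1 ± 12.1 and Rdh8 at 41.9 ± 4.58 CPM per kb. Photoreceptor genes thus held the first, the second and the fourth place. Rdh11 was at 17.7 ± 1.87 and Rdh10 at 10.2 ± 0.93 CPM per kb. The lowest 4 were Rgr at 1.77 ± 0.756, Rdh5 at 1.28 ± 0.412, Rpe65 at 0.801 ± 0.423 and Lrat at 0.277 ± 0.0574 CPM per kb (SD, n = 10). Rbp3 was 3869 times Lrat on this scale. Ranges over the 10 libraries overlapped between the neighbours Rdh12 and Rlbp1, Rgr and Rdh5, Rdh5 and Rpe65, and Rpe65 and Lrat. Within a library Rdh12 still exceeded Rlbp1 in 10 of 10 and Rgr exceeded Rdh5 in 9 of 10.

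**Figure D2:**
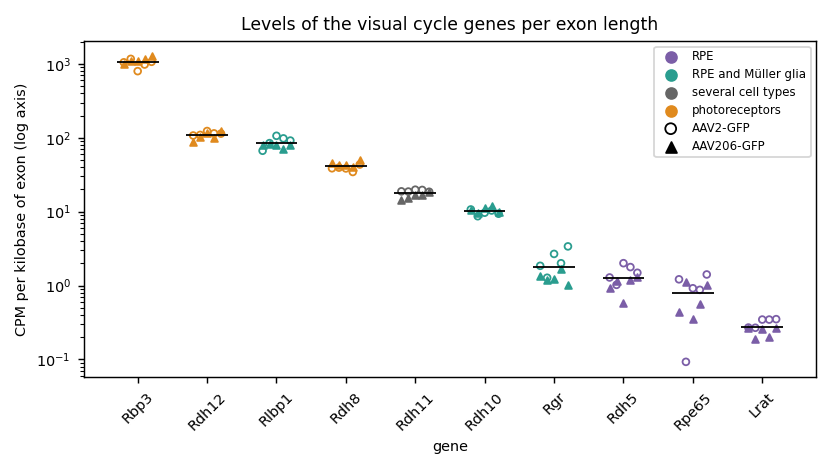
Level of the visual cycle genes per kilobase of exon, on a log axis, in the 10 libraries; open circles are AAV2-GFP, filled triangles AAV206-GFP, lines the mean of all libraries, and colours the cells known to express the gene. Levels run from 1071 CPM per kb for Rbp3 down to 0.277 for Lrat, with the 3 RPE genes at the low end.

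The RPE enzymes had low counts in these libraries, at 2 to 32 for Rpe65, 11 to 24 for Lrat and 19 to 73 for Rdh5. The libraries held 10989843 to 12752604 counts, and a count of 3 corresponds to between 0.235 and 0.273 CPM in single libraries. Rpe65, the isomerase that makes 11-cis-retinol from retinyl esters, was at 2.35, 0.180, 1.78, 1.69 and 2.73 CPM in AAV2-GFP replicates 1 to 5. With AAV206-GFP it was at 0.841, 2.19, 0.690, 1.08 and 1.95 CPM. AAV2-GFP replicate 2 was the lowest of all libraries, with 2 counts, and the groups overlapped. The log2 fold change of Rpe65 was -0.38 with a 95% interval of -1.39 to 0.63 (edgeR adjusted p = 0.643), which covers large differences in either direction. When 1 library was left out the estimate ranged from -0.66, without AAV2-GFP replicate 2 (edgeR adjusted p = 0.252), to -0.16, without AAV2-GFP replicate 5 (0.871). At these levels no difference in Rpe65 was detectable.

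Lrat, the acyltransferase that stores retinol as esters, was at 1.45, 1.44, 1.86, 1.86 and 1.88 CPM in AAV2-GFP replicates 1 to 5 and at 1.43, 1.00, 1.38, 1.08 and 1.44 CPM in AAV206-GFP replicates 1 to 5. The highest AAV206-GFP retina lay just above the lowest AAV2-GFP retina, so the groups barely overlapped. Here the log2 fold change was -0.42 with a 95% interval of -0.98 to 0.14 (edgeR adjusted p = 0.316). An antisense gene, Rbm46os, overlaps Lrat and had 0 counts. Rdh5, the 11-cis-retinol dehydrogenase that completes the cycle, was at 3.62, 2.88, 5.65, 5.00 and 4.19 CPM in AAV2-GFP replicates 1 to 5 and at 2.61, 3.28, 1.64, 3.32 and 3.65 CPM in AAV206-GFP replicates 1 to 5. AAV2-GFP replicates 1 and 2 lay among the AAV206-GFP retinas. Its log2 fold change was -0.56 with a 95% interval of -1.09 to -0.03 (edgeR adjusted p = 0.154). The overlap with Bloc1s1 leaves this value uncertain. The edgeR test called none of these 3 RPE genes after adjustment, DESeq2 and limma-voom also called none, and 1 of the 3 had an unadjusted p under 0.05 in each. Summed over the 3 genes, AAV2-GFP retinas held 4.49 to 9.28 CPM and AAV206-GFP retinas 3.71 to 7.04 CPM.

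Other RPE markers were low as well, apart from Krt18. Of 15 listed marker genes 7 were tested, and 0 passed with edgeR, DESeq2 or limma-voom, with 3 at an unadjusted p under 0.05 in edgeR. None of the 14 with a row was at 0 in all libraries. Best1, a defining chloride channel of the RPE, was below the filter, at means of 0.391 ± 0.135 and 0.384 ± 0.117 CPM in the groups (SD, n = 5). The summed level of the list was 43.8 to 58.4 CPM in AAV2-GFP retinas and 45.7 to 78.7 CPM in AAV206-GFP retinas. Krt18, a keratin with a mean of 36.9 CPM that is not restricted to the RPE, made up most of it. Without Krt18 the sums were 15.7 to 26.6 and 16.2 to 22.5 CPM, and the groups overlapped.

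Rgr encodes the RGR opsin, a membrane protein of RPE and Müller glia that binds all-trans-retinal and photoisomerises it. It was at 8.86, 6.11, 12.8, 9.60 and 16.2 CPM in AAV2-GFP replicates 1 to 5, and at 6.39, 5.66, 5.95, 8.07 and 4.92 CPM in AAV206-GFP replicates 1 to 5. AAV2-GFP replicates 3 and 5 were high and AAV2-GFP replicate 2 lay among the AAV206-GFP retinas, so the groups overlapped. Group means were 10.7 ± 3.90 and 6.20 ± 1.18 CPM (SD, n = 5). On the log2 scale Rgr changed by -0.79 ± 0.22 (SE, edgeR adjusted p = 0.0328), a fall of 42.3% by the edgeR estimate. Leaving out AAV2-GFP replicate 1, AAV2-GFP replicate 2 or AAV206-GFP replicate 4 kept the call, while leaving out any 1 of the other 7 libraries gave adjusted p-values of 0.0532 to 0.0864.

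The 2 retinas highest for Rgr were also highest for the sum of 3 RPE genes outside the members, which were chosen for this after their values were seen and support nothing. They are Ttr, the retinol carrier transthyretin, Stra6, the retinol uptake receptor, and Slc16a8, the lactate transporter of the RPE. Their summed level was 21.1, 9.07, 22.4, 17.3 and 23.2 CPM in AAV2-GFP replicates 1 to 5 and 13.3, 9.39, 9.31, 17.3 and 11.8 CPM in AAV206-GFP replicates 1 to 5. AAV2-GFP replicates 3 and 5 were the highest in this sum and in Rgr, and AAV2-GFP replicate 2 was the lowest of its group in both. Within AAV206-GFP, replicate 4 was the highest in both. None of the 3 genes passed by itself with edgeR, at log2 fold changes of -0.72, -0.46 and -0.50 and adjusted p-values of 0.171, 0.117 and 0.296. Not all RPE genes shared this direction. Of the 7 tested RPE markers 4 were higher in estimate with AAV206-GFP. These were the pigment enzyme genes Tyrp1 and Dct, at log2 fold changes of 0.72 and 0.24, and Ermn at 0.19. Krt18, which is not restricted to the RPE, was at 0.36. None of these 4 passed (edgeR adjusted p-values of 0.118 to 0.855). The 3 lower in estimate were Slc16a8, Mitf at -0.40 and Pmel at -0.13. None of those 3 passed either (edgeR adjusted p-values of 0.106 to 0.855). The part of RPE genes in the Rgr difference was not tested.

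Rlbp1 encodes CRALBP, the carrier of 11-cis-retinoids in RPE and Müller glia. It was at 197, 250, 314, 290 and 271 CPM in AAV2-GFP replicates 1 to 5 and at 235, 247, 238, 205 and 236 CPM in AAV206-GFP replicates 1 to 5. AAV2-GFP replicate 1 was the lowest of all 10 retinas, whereas the other 4 AAV2-GFP retinas were above every AAV206-GFP retina. Over all libraries the log2 fold change was -0.19 with a 95% interval of -0.40 to 0.02 (edgeR adjusted p = 0.225). Without AAV2-GFP replicate 1 it was -0.28 and passed (edgeR adjusted p = 0.0249). In the other 9 analyses that left out a library it did not pass, with adjusted p-values of 0.216 to 0.465. Without AAV2-GFP replicates 1 and 4 together it was -0.27 (edgeR adjusted p = 0.0711).

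AAV2-GFP replicate 1 was also the retina with the most immune RNA. The summed level of 8 immune markers was 130 CPM there, against 13.7 to 20.2 CPM in the other AAV2-GFP retinas and 12.6 to 16.9 CPM with AAV206-GFP. All 8 had counts in at least 1 library, and of the 3 that were tested 0 passed with edgeR, DESeq2 or limma-voom, all 3 having an unadjusted p under 0.05 in edgeR. Whether this bears on Rlbp1 was not tested.

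Over the 10 libraries, after subtraction of the group means, the gene whose pattern was most like that of Rlbp1 was Glul, the glutamine synthetase that marks Müller glia (Pearson r = 0.987 over 10 libraries, the highest of 14949 genes compared, as a description). Cplx3, a complexin of ribbon synapses, followed at 0.972 and Habp4, a hyaluronan-binding protein gene, at 0.972. Glul itself was at 1863 ± 275 and 1784 ± 118 CPM (SD, n = 5), and its log2 fold change was -0.06 (edgeR adjusted p = 0.684). Of 12 Müller glia markers 0 passed with edgeR, although 9 had an unadjusted p under 0.05, against 28.0% of all tested genes. In estimate 10 of the 12 were lower with AAV206-GFP and 2 higher, with a median log2 fold change of -0.20. DESeq2 called 3 of the 12 markers, 2 lower and 1 higher, and limma-voom called 0. Without AAV2-GFP replicate 1, where Rlbp1 passed, 2 of the 12 passed as well, both lower. Of the other analyses that left out a library, 1 marker passed as higher without AAV2-GFP replicate 3 and 1 as lower without AAV206-GFP replicate 1. The part of the Müller glia markers in the Rlbp1 values was not tested. Their summed level was 4019 to 4949 CPM in AAV2-GFP retinas and 3643 to 4342 CPM in AAV206-GFP retinas, the lowest being AAV206-GFP replicate 4, which was also the lowest of its group for Rlbp1.

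**Figure D3:**
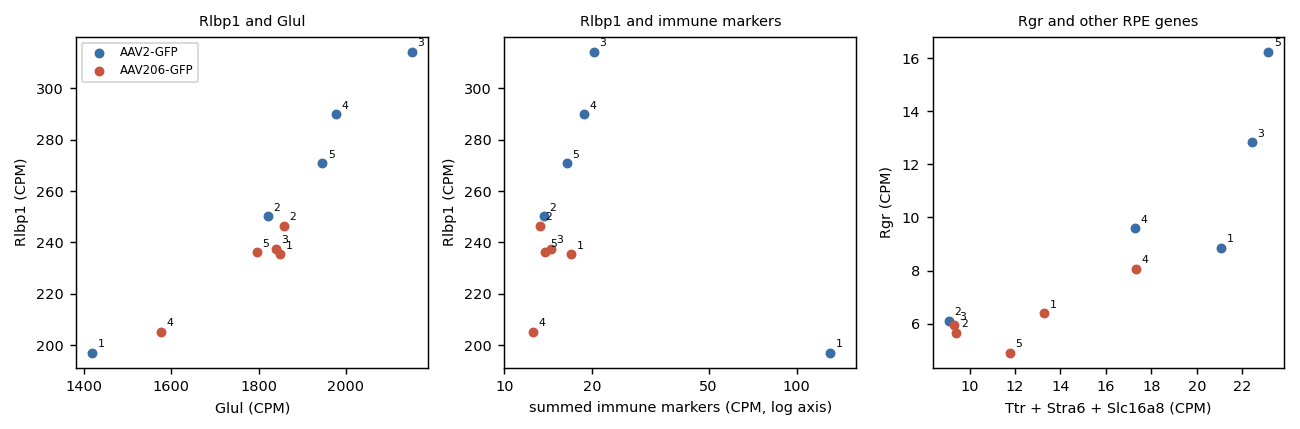
Each point is 1 retina, numbered by replicate, in CPM: Rlbp1 against Glul, Rlbp1 against the summed immune markers (log axis) and Rgr against the sum of Ttr, Stra6 and Slc16a8; the axes do not start at 0. AAV2-GFP replicate 1 has the lowest Rlbp1 (197 CPM) and Glul (1419 CPM) and the highest immune sum (130 CPM). AAV2-GFP replicates 3 and 5 are the highest for Rgr and for the sum of Ttr, Stra6 and Slc16a8. These 3 genes were chosen after their values were seen. Of 7 tested RPE markers 4 were higher in estimate with AAV206-GFP, including Krt18, which is not restricted to the RPE. The other 3 were lower in estimate, and 0 of the 7 passed with edgeR.

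Rdh10, a dehydrogenase that oxidises retinol in RPE and Müller glia and also feeds retinoic acid synthesis, was at 36.1 to 44.6 CPM in AAV2-GFP retinas and 39.7 to 49.5 CPM in AAV206-GFP retinas. Its log2 fold change was 0.11 with a 95% interval of -0.06 to 0.28 (edgeR adjusted p = 0.381). Among the members shared by RPE and Müller glia, 1 of 3 therefore passed, and the estimates did not share a direction.

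Rdh11 encodes a retinol dehydrogenase of the endoplasmic reticulum with dual specificity for cis and trans retinoids, found in photoreceptors, RPE and other cells. It was at 65.1, 64.7, 68.5, 68.0 and 64.2 CPM in AAV2-GFP replicates 1 to 5. With AAV206-GFP it was at 49.2, 52.4, 58.5, 58.8 and 63.3 CPM in replicates 1 to 5. All AAV206-GFP retinas lay under all AAV2-GFP retinas, and AAV206-GFP replicate 5 came within 1 CPM of them. Means were 66.1 ± 1.99 and 56.4 ± 5.61 CPM (SD, n = 5). The log2 fold change was -0.23 ± 0.07 (SE, edgeR adjusted p = 0.0474). The call held without AAV206-GFP replicate 5 (edgeR adjusted p = 0.0212) and was lost when any 1 of the other 9 libraries was left out, at adjusted p-values of 0.0574 to 0.118. The log2 fold change stayed between -0.27 and -0.18 in those 10 fits.

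The photoreceptor members did not pass. Rdh8, the outer segment enzyme that reduces all-trans-retinal after bleaching, was at 54.3, 55.4, 54.1, 48.4 and 61.1 CPM in AAV2-GFP replicates 1 to 5 and at 64.8, 60.7, 61.1, 57.4 and 71.4 CPM in AAV206-GFP replicates 1 to 5. The groups overlapped through AAV2-GFP replicate 5, which exceeded 3 of the AAV206-GFP retinas. For Rdh8 the log2 fold change was 0.21 with a 95% interval of 0.05 to 0.37 (edgeR adjusted p = 0.0845).

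Rdh12, the inner segment dehydrogenase that clears retinal, was at 319 to 366 CPM in AAV2-GFP retinas and 264 to 372 CPM in AAV206-GFP retinas. Its AAV206-GFP retinas held both the lowest and the highest level of all 10. On the log2 scale the difference was -0.10 with a 95% interval of -0.27 to 0.08 (edgeR adjusted p = 0.466), and it was -0.04 without AAV206-GFP replicate 1 and -0.16 without AAV206-GFP replicate 5. The genes most like Rdh12 over the 10 libraries were Nsg1 (Pearson r = 0.965), Mab21l1 (0.947) and Atg3 (0.944), given as a description. Nsg1 and Mab21l1 carried decimals in all 10 libraries, so their levels are uncertain. For Rpe65 the most like genes were S100a11 (0.926), Zfp422 (0.926) and Rab9b (0.889). These values include AAV2-GFP replicate 2, where Rpe65 had 2 counts, and were not computed without it.

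Rbp3 was at 5557, 6190, 4223, 5191 and 5648 CPM in AAV2-GFP replicates 1 to 5 and at 5311, 5765, 5867, 6170 and 6764 CPM in AAV206-GFP replicates 1 to 5. AAV2-GFP replicate 3 was low, and the groups otherwise overlapped. For Rbp3 the estimate was 0.16 on the log2 scale, with a 95% interval of -0.03 to 0.34 (edgeR adjusted p = 0.246). Without AAV2-GFP replicate 3 it was 0.08 (edgeR adjusted p = 0.507). DESeq2 and limma-voom called none of the 3 photoreceptor genes either, and 1 of the 3 had an unadjusted p under 0.05 in each of the 3 tools.

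Some markers of the photoreceptors themselves passed as higher with AAV206-GFP. Of 10 rod markers edgeR called 3, all higher, against 5.95% of all tested genes called as higher. DESeq2 called 4 rod markers, 1 of them lower. In estimate 6 of the 10 were higher and 4 lower. The called genes include Nr2e3, a rod transcription factor, and Pdc, which encodes phosducin, each with a log2 fold change of 0.25. The number of rod markers called ranged from 1 to 4 when 1 library was left out, and was 1 without AAV2-GFP replicate 4, without AAV206-GFP replicate 3 and with no filter on low counts. Without AAV206-GFP replicate 5 the 4 rod calls were 2 lower and 2 higher. Of 8 cone markers 2 passed, both higher, and 2 were called whichever single library was left out. Without AAV2-GFP replicates 1 and 4 together 1 cone marker was called. In estimate 6 of the 8 cone markers were higher and 2 lower. The cone genes were the opsin Opn1mw, with a log2 fold change of 0.47, and the transducin Gnat2, with 0.24. Summed cone markers were at 846 to 951 CPM with AAV2-GFP and 949 to 1012 CPM with AAV206-GFP. The part of these markers in the values of the photoreceptor members was not tested.

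The retinoid pathway outside the members was read from a list of 42 genes, of which 28 were tested and 14 were below the filter. Of the 28, 2 passed with edgeR and both were lower with AAV206-GFP, with DESeq2 calling 3 and limma-voom 2. The 2 edgeR calls are 7.14% of the list, against the background of 11.2%. The median log2 fold change of the list was -0.08, against -0.0095 over all tested genes.

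Cyp26b1, a cytochrome that degrades retinoic acid, was at 6.42, 6.29, 4.33, 6.45 and 4.87 CPM in AAV2-GFP replicates 1 to 5. In AAV206-GFP replicates 1 to 5 it was at 2.27, 2.28, 2.07, 2.15 and 2.54 CPM. The groups were far apart, and the AAV206-GFP retinas stayed within a narrow range. The log2 fold change was -1.32 with a standard error of 0.19, a fall of 59.9% (edgeR adjusted p = 0.000458). It passed in all 10 analyses that left out a library, with log2 fold changes of -1.40 to -1.27.

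Dhrs3, a retinal reductase known from cone outer segments and other tissues, was at 90.7, 84.7, 88.4, 82.4 and 82.2 CPM in AAV2-GFP replicates 1 to 5. In AAV206-GFP replicates 1 to 5 it was at 62.8, 65.4, 71.8, 63.8 and 79.2 CPM, all under the AAV2-GFP retinas. The log2 fold change was -0.32 ± 0.07 (SE, edgeR adjusted p = 0.00885), and it passed in all 10 analyses that left out a library. Summed cone markers were 949 to 1012 CPM in AAV206-GFP retinas and 846 to 951 CPM in AAV2-GFP retinas, and these ranges overlapped. The part of the cone markers in the Dhrs3 values was not tested.

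Among the other roles, uptake and transport genes were 0 of 4 called by edgeR, DESeq2 and limma-voom, with 3 of 4 at an unadjusted p under 0.05 in edgeR. Abca4, the photoreceptor transporter that clears retinal from discs and the most abundant of them, averaged 1752 ± 244 and 1758 ± 93.9 CPM (SD, n = 5), and its log2 fold change was 0.0051 (edgeR adjusted p = 0.977). Ester and isomerase genes were 0 of 4 called by the 3 tools, with 1 at an unadjusted p under 0.05 in edgeR. Degs1, proposed as an isomerase in Müller glia, was the most abundant of these, with a log2 fold change of -0.06 (edgeR adjusted p = 0.704).

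The carotenoid and opsin genes were 0 of 3 by edgeR, with 1 at an unadjusted p under 0.05, and 1 by DESeq2, higher. Rrh, which encodes the RPE opsin peropsin and was their most abundant, was at 9.97 to 12.8 CPM in AAV2-GFP retinas and 10.8 to 19.6 CPM in AAV206-GFP retinas. Its log2 fold change of 0.46 did not pass (edgeR adjusted p = 0.0545), and it had the opposite sign to that of Rgr. Of the other dehydrogenases 1 of 6 passed, which was Dhrs3. Rdh13, the highest of the others in CPM without regard to length, had a log2 fold change of 0.0048 (edgeR adjusted p = 0.981). Retinoic acid genes were 1 of 11, which was Cyp26b1. The nuclear receptor gene Rxra, the most abundant of them, had a log2 fold change of -0.02 (edgeR adjusted p = 0.886).

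**Figure D4:**
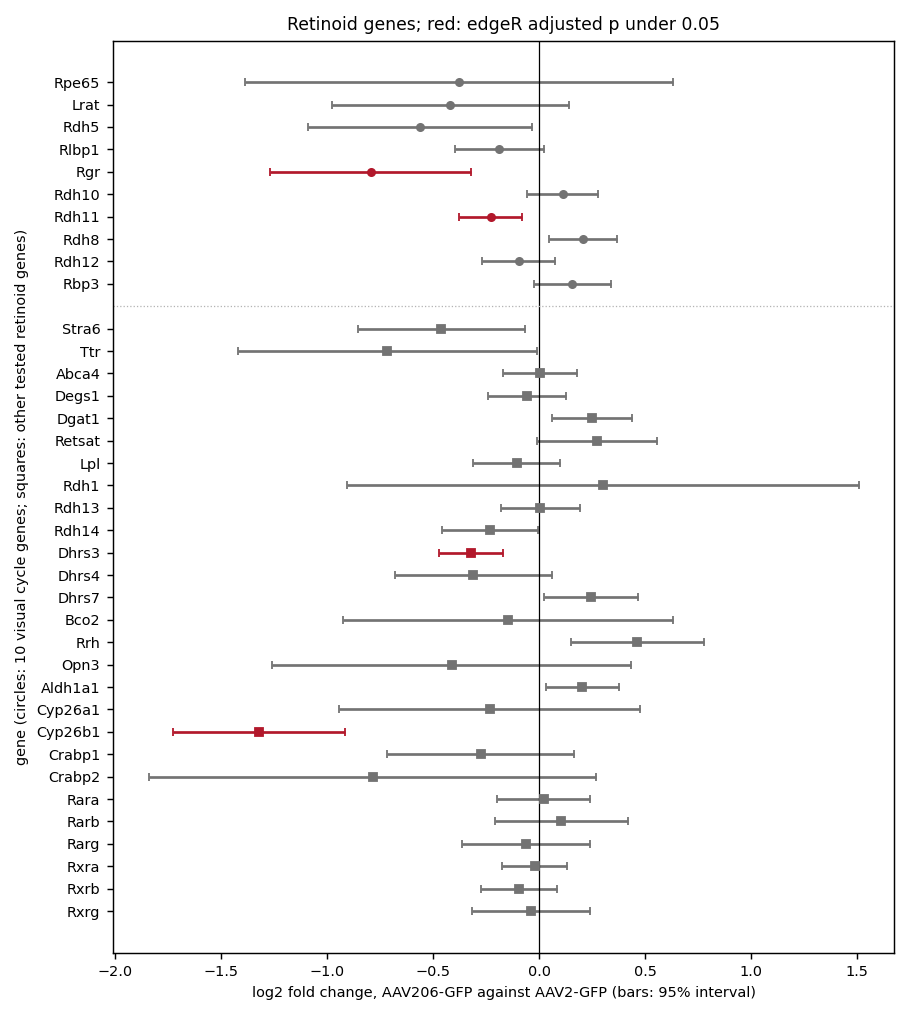
Log2 fold change of AAV206-GFP against AAV2-GFP for the 10 visual cycle genes (circles) and the other tested retinoid genes that are reported here (squares), with 95% intervals from edgeR; red marks an adjusted p under 0.05. Rgr at -0.79, Rdh11 at -0.23, Dhrs3 at -0.32 and Cyp26b1 at -1.32 are the genes in red, all to the left of 0.

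**Figure D5:**
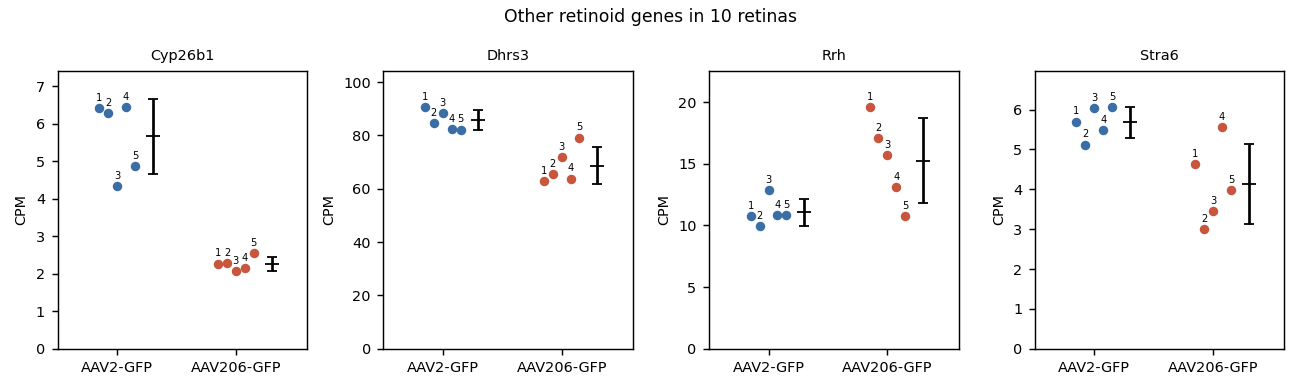
Level of 4 retinoid genes outside the members in the 10 libraries, in CPM on a linear axis from 0; points are single retinas numbered by replicate, bars the mean and SD of 5 libraries. Cyp26b1 and Dhrs3 separate the groups, while Rrh and Stra6 overlap. Groups did not overlap in 2 of the 28 tested retinoid genes outside the members, against 9.78% of all tested genes. Stra6 was chosen after its values were seen.

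Values of the other marker lists are given for the same libraries. Of the erythrocyte markers 4 of 5 passed as higher, with summed levels of 67.8 to 85.8 CPM in AAV2-GFP retinas and 101 to 319 CPM in AAV206-GFP retinas. Of 8 lens markers 2 were tested, and edgeR called both lower and DESeq2 called 1. Neither was called without AAV2-GFP replicate 5 or with robust edgeR, although both had an unadjusted p under 0.05 there. Lens sums were 11.0 to 32.8 and 0.821 to 12.5 CPM and overlapped, and Lim2 was at 0 in all libraries. Choroid and scleral sums were 11.8 to 25.9 and 7.45 to 20.5 CPM and overlapped, with 1 of 4 tested genes called, lower, by edgeR and 0 by limma-voom. That 1 call was lost when any 1 of 7 libraries was left out (AAV2-GFP replicates 1, 3 and 5 and AAV206-GFP replicates 2 to 5). Summed interferon genes were high in AAV2-GFP replicates 1 and 4, at 377 and 475 CPM, and were 73.6 to 122 CPM in the other AAV2-GFP retinas and 74.1 to 91.8 CPM with AAV206-GFP. Of the 6 tested, edgeR called 4, all lower. The number was 0 without AAV2-GFP replicate 4, without AAV206-GFP replicate 1, without AAV206-GFP replicate 4, with robust edgeR and with limma-voom, where 3 to 5 had an unadjusted p under 0.05. With the replicate number as a block it was 0, with 4 at an unadjusted p under 0.05. Without AAV2-GFP replicates 1 and 4 together it was 0, with 2 at an unadjusted p under 0.05. It was 1 without AAV206-GFP replicate 2 or 5. All genes of the rod, cone, Müller glia, erythrocyte, choroid and interferon lists had counts in at least 1 library.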

How the data were processed

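RNA was measured in 10 mouse retina libraries, 5 per vector, grouped and numbered by their titles. The authors deposited estimated counts per gene (expected counts), not scaled between libraries. The submitters' processing notes name STAR 2.7.10b, RSEM 1.3.1 and mm10. The annotation is not given in the sources used here, and 91.3% of rows matched GENCODE M21. Those without a match held 0.519% of counts. Of all values 5.95% carried decimals, so values were rounded. Total counts were 10989843 to 12752604 per library. Intervals cover no PCR duplication.

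Genes were kept by filterByExpr (minimum count 10), scaled by TMM and tested with edgeR 4.0.16 in R 4.3.3 (quasi-likelihood F test, no covariates, all 10 libraries). Adjusted p-values are those of Benjamini and Hochberg over all 15539 tested genes. Positive values are higher with AAV206-GFP. The standard error is the log2 fold change over the square root of F. DESeq2 1.42.0 and limma-voom (limma 3.58.1) were alternatives, beside other scalings, filters, a replicate block and libraries left out. Levels are CPM on the TMM scale, per length divided by the union of exons. Promoters were RefSeq GRCm38.p6. The code was tested on simulated counts.

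All members are named. Of the pathway list the called genes and the most abundant uncalled gene of each role are named in the text. Ttr and Stra6 of the pathway list, neither of them called, are named as well and were chosen after their values were seen. For Rpe65, Rlbp1 and Rdh12 the 3 genes with the highest Pearson r of log2(CPM + 1) are named, among those with a mean of at least 1 CPM. The members and lists were chosen with earlier results of these data known. The labels tie no library to a mouse by name, so p-values measure the spread between these libraries. The kit is not stated to keep strand. Of 15 RPE markers, 14 had a symbol match. A rod marker and a pathway gene are not reported here by name, and no summed rod level is given.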

Additional observations from a re-analysis of the deposited data

Results flagged for a closer look

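In groups of 5, a library was set apart when its gap to the nearest other library exceeded 0.71 of the group's range (Dixon's ratio). Among 48 groups of values examined, 5 were set apart, and 2.4 would be reached by chance. Rlbp1 in AAV206-GFP replicate 4 was 205.3 CPM, while its group otherwise held 235 to 247 CPM (ratio 0.728). The summed Müller glia markers were low in the same retina, 3643 CPM against 4157 to 4342 CPM (ratio 0.735). Summed lens markers were 32.8 CPM in AAV2-GFP replicate 5, against 11.0 to 16.9 CPM (ratio 0.728), and this retina also had the highest Rgr. They were 12.5 CPM in AAV206-GFP replicate 1, against 0.821 to 3.14 CPM (ratio 0.801). Summed immune markers were 130.1 CPM in AAV2-GFP replicate 1, against 13.7 to 20.2 CPM (ratio 0.944).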

How the results depend on the processing

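The number of visual cycle genes past the threshold, 2 by edgeR, was 1 with upper quartile scaling, 1 without a filter, 1 with limma-voom and 1 without AAV2-GFP replicates 1 and 4, a pair taken from an earlier analysis of these data that holds the highest interferon sums (377 and 475 CPM). It ranged from 0 to 2 over the analyses that left out 1 library. With the replicate number as a block in edgeR it was 0, with 3 members at an unadjusted p under 0.05. Same-numbered libraries did not deviate together (correlations of -0.0417 to 0.0245), and no number was its own best match, so the numbers were not taken as pairs. Rgr was lost with limma-voom (adjusted p = 0.0543) and under the block (edgeR adjusted p = 0.0647). Rdh11 was lost with upper quartile scaling (edgeR adjusted p = 0.0551), without a filter (0.0544), under the block (0.0754) and without AAV2-GFP replicates 1 and 4 (0.142). No member changed direction in any of these alternatives. The number of genes past the threshold, 1747, was 1085 under the block, 985 without AAV2-GFP replicates 1 and 4, and 991 to 1912 over the analyses that left out 1 library. The number of other retinoid genes past it stayed at 2 or 3. Rpe65, Lrat and Rdh5 did not pass a minimum count of 50, and their depth limits what can be said of them.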

Other observations

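Rlbp1 was also read as a share of Glul, the gene it followed most closely, a choice made after the values were seen. Its counts were 13.9, 13.7, 14.6, 14.7 and 13.9% of those of Glul in AAV2-GFP replicates 1 to 5 and 12.7, 13.3, 12.9, 13.0 and 13.1% in AAV206-GFP replicates 1 to 5. Every AAV206-GFP value lay below every AAV2-GFP value, with means of 13.0 and 14.2%. Divided by Glul in the same way, 3.95% of 15538 genes had groups that did not overlap, and 1.99% in the lower direction. Glul was chosen because it followed Rlbp1 most closely within the groups, which narrows the spread of the share, so no test is given.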
